A study of Mus musculus with 4 samples.

Results

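The mouse Hox genes stand in 4 clusters, and their accessible chromatin was followed in embryonic stem cells kept by an engineered SOX factor or by SOX2. Members were all peaks that overlapped, or lay within 10 kb of, the span of a protein-coding gene named Hoxa, Hoxb, Hoxc or Hoxd with a number. Joining the peaks of all libraries wherever they shared at least 1 bp gave 170898 regions, and 116 of them were Hox regions around 39 genes. The Hoxa cluster on chromosome 6 held 28 of these regions, Hoxb on chromosome 11 held 32, Hoxc on chromosome 15 held 29 and Hoxd on chromosome 2 held 27. All cells were of the mouse embryonic stem cell line 2TS22C, grown in 2i serum/LIF medium and treated with DOX, and in both groups the endogenous SOX2 was silenced. The SOX17FNV group carried a lentivirus for SOX17FNV, an engineered form of SOX17, a factor of endoderm. The SOX2 group carried a lentivirus for SOX2, a factor needed for pluripotency. Each group had 2 ATAC-seq libraries of 900000 starting cells, in which a transposase cuts and tags open DNA. The labels call them biological replicates without saying how they were derived, so every spread given is the spread between these libraries.

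Hox genes encode homeodomain transcription factors that give cells along the head-to-tail axis their regional identity. Within a cluster they lie in the order in which they are switched on in the embryo, and genes at the same place in different clusters are called paralogs and share a number. In embryonic stem cells most Hox promoters are known to carry both activating and Polycomb repressive histone marks, and the genes are silent or nearly so until the cells differentiate. HOX proteins bind DNA together with PBX and MEIS proteins, and CDX factors and retinoic acid are known to open the clusters step by step.

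The promoters below are those on which the description of open and closed Hox genes turns. RefSeq gave 24 promoters for 22 of the 38 Hox genes described here. Each line shows the 250 bases before a start, 5′ to 3′ on the coding strand, on GRCm38.p6. Hoxa10, Hoxb1, Hoxc4 and Hoxd10 are, among these 24, the promoters that lay in the shared region with the highest signal in their cluster. For Hoxb and Hoxc this was no real ranking. Of 3 Hoxb promoters only that of Hoxb1 was covered in all libraries, and Hoxc4 had the 1 Hoxc promoter given. Higher regions over the ends of other genes, such as Hoxb9 and Hoxc13, had no promoter entry. Hoxd13, the digit gene with the most CG pairs among promoters covered in all libraries, and Hoxd4, a hindbrain gene with no peak over its promoter and the lowest GC content among Hox promoters, were added as contrasts after their values were seen. Capitals mark CG pairs, except in Hoxb1, where they mark the match to the PBX and HOX motif TGATNNAT.
Hoxa10 promoter, chr6:52240855-52241104, minus strand: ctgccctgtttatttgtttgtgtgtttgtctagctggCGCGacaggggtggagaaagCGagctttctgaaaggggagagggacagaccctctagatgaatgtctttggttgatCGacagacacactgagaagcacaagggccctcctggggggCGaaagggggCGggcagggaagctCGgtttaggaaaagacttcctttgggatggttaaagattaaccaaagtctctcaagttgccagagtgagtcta
Hoxb1 promoter, chr11:96365508-96365757, plus strand: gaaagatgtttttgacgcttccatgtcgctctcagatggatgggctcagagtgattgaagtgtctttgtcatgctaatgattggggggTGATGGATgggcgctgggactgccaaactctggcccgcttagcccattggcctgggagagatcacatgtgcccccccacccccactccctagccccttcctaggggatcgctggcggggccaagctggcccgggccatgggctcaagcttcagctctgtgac
Hoxc4 promoter, chr15:103034145-103034394, plus strand: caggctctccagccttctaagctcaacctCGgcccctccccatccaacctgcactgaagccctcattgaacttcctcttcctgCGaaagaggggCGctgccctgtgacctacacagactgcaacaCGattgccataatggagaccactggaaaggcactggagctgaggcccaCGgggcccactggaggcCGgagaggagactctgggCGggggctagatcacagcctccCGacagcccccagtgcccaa
Hoxd10 promoter, chr2:74691641-74691890, plus strand: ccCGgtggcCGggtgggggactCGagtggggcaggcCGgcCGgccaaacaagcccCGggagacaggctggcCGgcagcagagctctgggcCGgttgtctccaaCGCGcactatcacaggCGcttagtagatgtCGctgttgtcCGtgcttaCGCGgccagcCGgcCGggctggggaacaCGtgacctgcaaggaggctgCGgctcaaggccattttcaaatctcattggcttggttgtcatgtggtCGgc
Hoxd13 promoter, chr2:74667975-74668224, plus strand: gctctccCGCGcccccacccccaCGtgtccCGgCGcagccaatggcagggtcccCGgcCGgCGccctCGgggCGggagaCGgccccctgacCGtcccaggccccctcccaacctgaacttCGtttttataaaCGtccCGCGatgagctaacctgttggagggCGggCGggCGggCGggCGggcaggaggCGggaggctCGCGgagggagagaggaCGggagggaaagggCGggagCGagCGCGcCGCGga
Hoxd4 promoter, chr2:74721728-74721977, plus strand: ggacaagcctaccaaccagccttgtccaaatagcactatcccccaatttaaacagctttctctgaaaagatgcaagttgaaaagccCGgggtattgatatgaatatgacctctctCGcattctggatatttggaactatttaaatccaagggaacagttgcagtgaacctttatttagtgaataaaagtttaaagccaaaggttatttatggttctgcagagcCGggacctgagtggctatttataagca

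The clusters also carry microRNA genes, whose products are known to restrain Hox messages. The 4 shown fall into a pair of seed families, and the seed, bases 2 to 8, is in capitals. The miR-10 genes lie beside Hoxb4 and Hoxd4, and the miR-196 genes beside the group 9 and 10 genes.
miR-10a-5p: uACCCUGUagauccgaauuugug
miR-10b-5p: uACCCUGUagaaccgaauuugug
miR-196a-5p: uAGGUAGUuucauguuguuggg
miR-196b-5p: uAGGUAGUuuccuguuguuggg

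The files hold peaks and not reads, and sequencing depth could only be judged by the pileups. The SOX17FNV lists held 120341 and 92851 peaks, and the SOX2 lists 123214 and 96500 peaks. The genome-wide background pileup, a stand-in for depth, was 3.91 and 3.27 for SOX17FNV, against 4.17 and 5.02 for SOX2. The second SOX17FNV library was thus the shallowest by this measure, and the second SOX2 library the deepest, with the lowest median fold enrichment of its peaks (2.99, against 3.43 to 3.52 in the others). Among stem cell markers, 8 of 8 (Pou5f1, Nanog, Sall4, Zfp42, Esrrb, Klf4, Tfcp2l1 and Dppa4) had a peak within 1 kb of a gene end in every library. Of 8 fibroblast markers, which feeder cells would bring, 6 and 5 did in SOX17FNV and 6 and 5 in SOX2 (75% and 62.5% in each group). That was near the share of all protein-coding genes, 70.0% and 66.8% in SOX17FNV and 70.2% and 67.2% in SOX2. Open gene ends alone thus did not separate these cell types.

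All 4 Hox clusters held dense open chromatin in both groups. The SOX17FNV libraries had 90 and 80 Hox peaks, and the SOX2 libraries 91 and 95 (85 ± 7.07 and 93 ± 2.83, SD, n = 2 each). Both SOX17FNV counts lay below both SOX2 counts. As a share of all peaks of the list, Hox peaks were 0.0748% and 0.0862% in SOX17FNV and 0.0739% and 0.0984% in SOX2, so the groups overlapped once list length was allowed for. These peaks covered 11.5% and 7.59% of the 517378 bp of the Hox windows in SOX17FNV, and 12.3% and 9.95% in SOX2 (9.56 ± 2.78% and 11.1 ± 1.65%). Covered length overlapped between the groups and was smaller in the second library of each. With 2 libraries against 2, an exact permutation test cannot give a p below 0.333, so no p is given for these sums.

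Of the 116 Hox regions, 61 (52.6%) were called in all 4 libraries, against 33.8% of all regions of the genome. The 300 regions of 49 PAX, LHX, NKX, IRX, DLX and sine oculis type genes, other developmental homeobox and paired-box genes, stood between them with 124 called in all 4 (41.3%). Hox regions called in 1 library made up 25%, in 2 libraries 12.1% and in 3 libraries 10.3%, against 35.2%, 17.5% and 13.5% of all regions. In the Hox windows there were 22.4 regions per 100 kb and 11.8 called in all 4 libraries, against 6.28 and 2.12 per 100 kb over the chromosomes. The share called in all 4 was 50% in Hoxa, 46.9% in Hoxb, 65.5% in Hoxc and 48.1% in Hoxd. Among Hox regions, those that spanned a gene end were the steadiest, with 17 of 19 called in all 4 libraries (89.5%). Inside a Hox gene 29 of 61 were called in all 4 (47.5%), and outside the genes 15 of 36 (41.7%). This split was not made genome-wide, so it has no background share. It also did not allow for width (genome-wide median 834 bp for regions called in all 4 libraries, 444 bp for all regions). These counts rest on the threshold of each list. When peaks needed a -log10 q of at least 5, 19 of 66 Hox regions were called in all 4 libraries (28.8%), under the 34.5% of all regions, so the direction of this comparison turned.

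**Figure D1:**
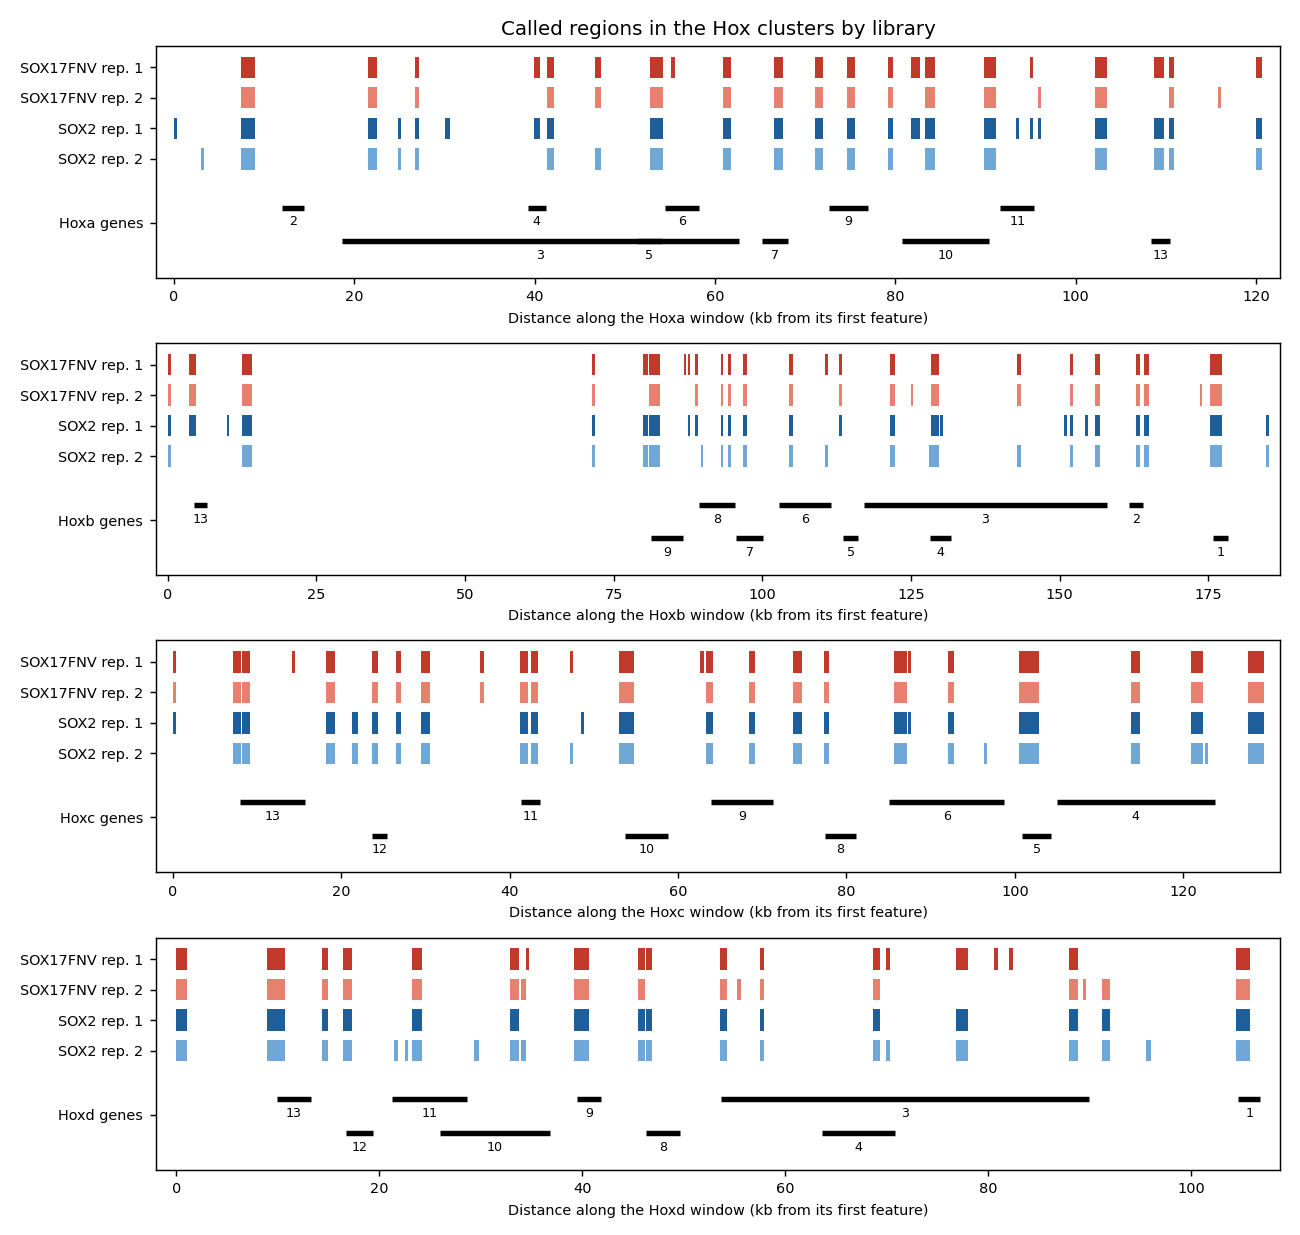
Called regions along each Hox cluster by library. The horizontal axis is distance in kb along the window of the cluster, each bar is a region with a peak in that library (SOX17FNV in red, SOX2 in blue), and black lines are the spans of the Hox genes described, with their paralog number. Most wide bars stand in all 4 rows, and thin bars are often present in 1 row; 61 of 116 regions were called in all 4 libraries.

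Hox regions were frequent and wide but not high. Their median width was 647.5 bp, against 444 bp for all regions, while those called in all 4 libraries had a median of 890 bp against 834 bp. The pileup is the number of reads or fragments stacked at the highest summit of a region. Its median over the 61 shared Hox regions was 30 and 21 for SOX17FNV, against 33 and 27 for SOX2. Over all 57783 shared regions the same medians were 33 and 24 in SOX17FNV and 35 and 28 in SOX2, above the Hox value in each library. The clusters differed. Hoxc had 33 and 24 in SOX17FNV and 40 and 31 in SOX2, and Hoxa 27.5 and 19, and 35.5 and 31. Hoxb and Hoxd lay below all shared regions in every library. The other developmental homeobox and paired-box genes had 30 and 22.5, and 33.5 and 28, with a median shared width of 898.5 bp. Shared Hox regions reached the 69.4 and 52.8 median percentile of the SOX17FNV lists and the 70.4 and 60.2 percentile of the SOX2 lists, against 74.4 and 67.0, and 74.6 and 67.9, for shared regions as a whole. No Hox peak had a pileup over 65 in SOX17FNV or over 69 in SOX2.

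Most Hox genes had open chromatin at an end of the gene in every library. A peak within 1 kb of either end was found for 33 and 30 of the 38 genes in the SOX17FNV libraries and for 31 and 32 in the SOX2 libraries. The end was called in all 4 libraries for 27 genes (71.1%), against 63.5% of all protein-coding genes. Of the genes of paralog groups 9 to 13, the posterior genes, 13 of 16 had such an end. In groups 1 to 3, the anterior genes, it was 5 of 7, and in the middle groups 4 to 8 it was 9 of 15. By cluster it was 9 of 10 genes in Hoxa, 5 of 10 in Hoxb, 7 of 9 in Hoxc and 6 of 9 in Hoxd.

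**Figure D2:**
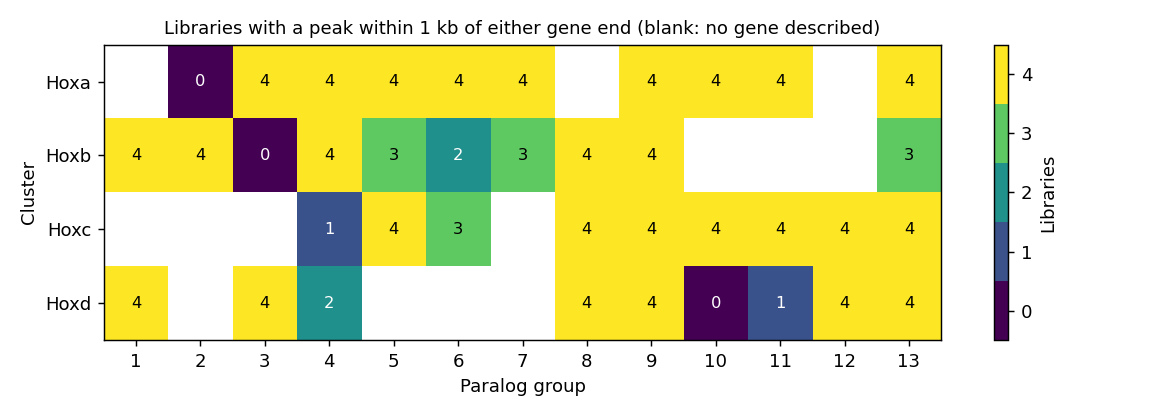
Number of libraries (0 to 4) with a peak within 1 kb of either end of each Hox gene, with clusters as rows and paralog groups as columns. Blank squares hold no gene described here. Of the 38 genes, 27 have the end called in all 4 libraries, and Hoxa2, Hoxb3 and Hoxd10 in none. The Hoxd10 promoter, covered in all 4 libraries, lies inside the gene span and away from its ends.

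Hoxa2, Hoxb3 and Hoxd10 had no peak within 1 kb of a gene end in any library. Hoxa2, which patterns the second pharyngeal arch, also had no peak on its 2415 bp span (chr6:52162417-52164831). Hoxb5, a gene of the neural crest and lung, likewise had none on its 2610 bp span (chr11:96303512-96306121), although a region 99 bp away was called in the first SOX2 library and with SOX17FNV in both. Its pileup was 20 and 18 in SOX17FNV and 30 in that SOX2 library. Hoxb3 and Hoxd10 did hold regions inside their spans, 4 and 1 of them called in all 4 libraries. That Hoxd10 region held the printed promoter, which lies inside the gene span and away from its ends. A gene end without a peak thus does not stand for a closed start. The spans of Hoxa3, Hoxb3 and Hoxd3 are long, at 44009, 40830 and 36279 bp, and contain other Hox genes, so their 10 regions each cannot all be credited to them.

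The other exceptions were single libraries rather than groups. The ends of Hoxc4 and Hoxd11 were called only in the second SOX2 library, although a promoter inside the span of each was covered in every library. The single region on the span of Hoxa6, with a pileup of 18, was called only in the first SOX17FNV library. The ends of Hoxb6 and Hoxd4 were called in 2 libraries, the first SOX17FNV and the second SOX2. The ends of Hoxb7 and Hoxb13 were missed in the second SOX2 library, and that of Hoxc6 in the second SOX17FNV library. No described Hox gene was without any region on its span in both libraries of one group while holding at least 1 in both libraries of the other.

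At base resolution, 10 of the 24 Hox promoters were covered by a peak in all 4 libraries (41.7%), against 42.2% of the 32851 promoters in the RefSeq table. Another 10 were covered in none (41.7%, against 47.1%). A promoter here runs from 250 bases before to 50 after a start. The number covered was 12 in each SOX17FNV library and 13 in each SOX2 library. The Hoxd promoters were mostly covered, with 6 of 10 in all libraries, namely Hoxd1, Hoxd3, Hoxd9, Hoxd10, Hoxd13 and 1 of the 2 of Hoxd11. The Hoxa promoters were mostly not, with 2 of 10 covered in all (Hoxa5 and 1 of the 2 of Hoxa10) and 7 in none (the other of Hoxa10, Hoxa2, Hoxa3, Hoxa6, Hoxa7, Hoxa9 and Hoxa11). Hoxb1 and Hoxc4 were covered in all libraries, Hoxb8 and Hoxd4 in none. Hoxa13, Hoxd12 and Hoxd8 were covered in 3 libraries and Hoxb4 in the second SOX2 library only. The missing library was the second SOX17FNV one for Hoxa13, the first SOX17FNV one for Hoxd12 and the second SOX2 one for Hoxd8, so no promoter was covered in a single group throughout.

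Covered and uncovered Hox promoters overlapped in CG content. Over the full 300 bases, the Hox promoters held a median of 14.5 CG pairs and 57.7% GC, against 7 and 52.7% for all promoters. Those covered in all libraries had a median of 21 CG pairs (9 to 37), and those covered in none had 11 (4 to 26). For all promoters the same medians were 21 and 3. The sequences printed above show the range. Hoxd13 held 37 CG pairs in its 300 bases, Hoxd10 22, Hoxa10 12, Hoxb1 10 and Hoxc4 9, all with a peak in every library, and Hoxd4 held 4 with no peak over the promoter. CG content did not sort the Hox promoters fully, since Hoxa13 with 45 was missed in 1 library and Hoxa6 with 26 was covered in none.

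**Figure D3:**
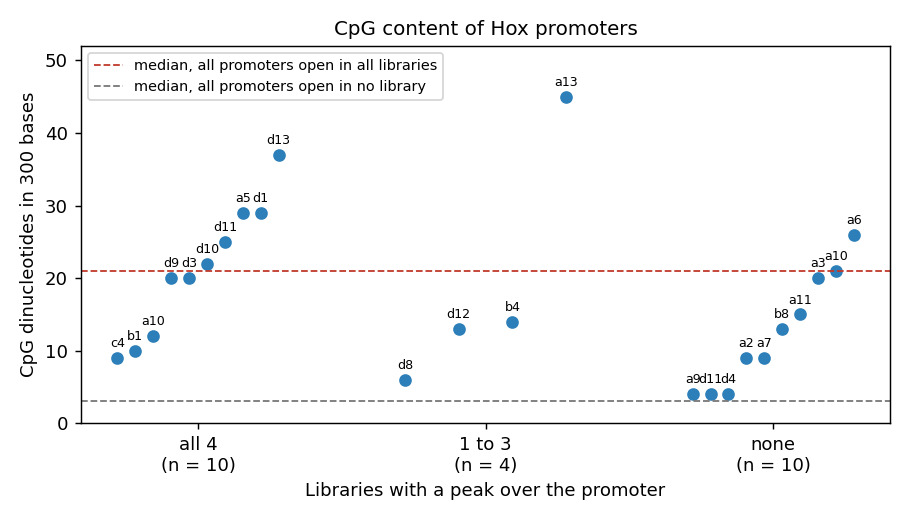
CG pairs (CpG dinucleotides) in the 300 bases of each Hox promoter, on the vertical axis, by the number of libraries with a peak over it. Each point is a promoter named by its gene, and dashed lines are the medians of all RefSeq promoters covered in all libraries (21) and in none (3); the Hox promoters without a peak lie between 4 and 26, all above the lower line.

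Short motifs of factors tied to these cells or to Hox control were searched on both strands of the 300 bases. No Hox promoter held the SOX motif CATTGT, which 12.6% of all promoters did. The related SOX motif CTTTGT was present in 6 of 24 (25%, against 18.7%), and the octamer ATGCAAAT of OCT factors in none (against 1.74%). The PBX and HOX motif TGATNNAT was in 4 promoters (16.7%, against 8.85%), namely those of Hoxa2, Hoxb8, Hoxb1 and Hoxd11. The CDX motif TTTATG was in 5 (20.8%, against 11.9%). The match in the Hoxb1 line above starts 162 bases before the start site. In mouse embryos Hoxb1 is known to sustain its own expression in the hindbrain through sites for PBX and HOX proteins next to its start. A match is a run of letters, not a bound site, and a promoter without one may still be bound.

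The Hoxb1 region at chr11:96365261-96367232, which held this promoter, had pileups of 26 and 14 in SOX17FNV and 19 and 18 in SOX2. The Hoxa10 region at chr6:52240276-52241628 had 28 and 23 in SOX17FNV and 47 and 31 in SOX2. The Hoxc4 region at chr15:103034033-103035480 had 30 and 22 in SOX17FNV and 38 and 29 in SOX2. All of these promoters were thus open in both groups at moderate levels, with raw values higher in the first library of each group. The Hoxd13 region at chr2:74667251-74669031 had 23 and 21 in SOX17FNV and 32 and 28 in SOX2. At Hoxa10 and Hoxd13 both SOX17FNV values lay below both SOX2 values, before the scaling described below as well as after it, and limma's adjusted p was 0.391 and 0.675.

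Few Hox regions belonged to one group. A single region (0.862%) had a peak in each SOX17FNV library and none with SOX2, against 3.06% of all regions. The reverse, a peak in each SOX2 library and none with SOX17FNV, held for 3 (2.59%), against 4.09%. Both shares lay below their backgrounds, and the other developmental homeobox and paired-box genes had 6 and 17 of 300. The difference in share from the rest of the genome was not tested.

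The SOX17FNV-only region lay 4478 bp from Hoxc11, a gene of the hindlimb and lower spine, at chr15:102949665-102950048. Its pileup was 19 and 10 in the SOX17FNV libraries, with authors' fold enrichments of 3.30 and 2.58. It reached the 41.5 and 3.40 percentile of those lists, so in the second it was close to the weakest peak.

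Of the SOX2-only regions, the highest lay 1736 bp from Hoxc12, a gene of the hair follicle, at chr15:102934364-102935090. Its pileup was 43 and 31 in the SOX2 libraries, with folds of 2.08 and 2.01, the lowest folds of these group-specific regions despite the highest pileups. It lay between the shared regions of Hoxc13 and Hoxc12. A second lay inside Hoxa3 at chr6:52175249-52175618, with pileups of 26 and 21 and folds of 3.02 and 2.27 in SOX2. The last lay 6463 bp from Hoxb1 at chr11:96374717-96375139, with 12 and 15 and folds of 2.51 and 2.66 in SOX2. None of these was above the 46.5 percentile of its list, and none was called in both libraries of its group at a -log10 q of at least 5.

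Widening the distance to 50 kb gave 3 SOX17FNV-only and 5 SOX2-only regions among 163. The nearest addition was a SOX17FNV-only region 10223 bp from Hoxb13 at chr11:96183756-96184093, just outside the 10 kb limit. Its pileup was 21 and 22 in SOX17FNV, and its folds of 4.48 and 5.18 were higher than those of all the group-specific regions inside the limit. The other SOX17FNV-only addition lay 36022 bp from Hoxc13, with pileups of 15 and 27. The SOX2-only additions lay 13156 bp from Hoxc4, with 22 and 15, and inside Evx2, the homeobox gene that flanks Hoxd13, with 19 and 19.

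Signal levels in shared regions were compared after dividing each library's pileup by its median over all shared regions. No shared Hox region differed between SOX17FNV and SOX2 past an adjusted p of 0.05 (limma with Benjamini-Hochberg adjustment over 57783 regions), and the lowest adjusted p was 0.226. Genome-wide, 0.893% of shared regions were called higher in SOX17FNV and 1.23% lower. At an unadjusted p under 0.05, 0 Hox regions were higher and 3 lower, against 7.46% and 6.07% of all shared regions. On simulated data the fit recovered 62% of 2-fold changes (1 on the log2 scale), so the lack of a call does not show equal levels. The Hox differences ran from -0.68 to 0.45 on the log2 scale, all smaller than that change.

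Within that range the Hox differences leaned to lower values in SOX17FNV. Of the 61 shared Hox regions, 45 (73.8%) had a log2 difference below 0 (SOX17FNV minus SOX2), against 44.8% of all shared regions. The median was -0.14, against 0.04 for all shared regions and 0.03 for the 15200 shared regions with levels in the middle range (lower to upper quartile) of the Hox levels. In 20 Hox regions (32.8%) both SOX17FNV libraries lay below both SOX2 libraries, against 18.5% of all shared regions, and in 3 (4.92%) they lay above, against 24.1%. Some other lists also had more regions below 0 than above. Of the 124 shared regions of the other developmental homeobox and paired-box genes, 76 (61.3%) lay below 0 with a median of -0.05, and both SOX17FNV libraries lay below in 26.6% and above in 12.1%. The 13 shared regions of the linked homeobox genes named further on all lay below 0, with a median of -0.17. This list was not separate from Hox, since its 2 shared regions at Evx2 are also Hox regions at or near Hoxd13 (-0.11 and -0.29). Fibroblast markers had a median of -0.11 over 14 shared regions, 9 of them below 0. Stem cell markers had a median of -0.05 over 53, with 30 below 0. At an unadjusted p under 0.05 in limma, 0 of these 53 were higher and 8 lower. The shares of all shared regions were 7.46% and 6.07%. The difference between Hox and these lists was not tested, nor was the part that cells of another type play in the Hox values. The Hox lean was not an excess of called regions, and the median over Hox regions carries no p. Divided by background pileup instead, the median turned to 0.06, while that of all shared regions became 0.24, which again lay above the Hox median.

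By cluster, the medians ran from -0.27 to 0.04. In Hoxa, 13 of 14 shared regions lay below 0, with a median of -0.27, against -0.07 for the other shared regions of chromosome 6. In Hoxc it was 16 of 19 with a median of -0.12, against 0.03 for chromosome 15, and in Hoxd 10 of 13 with -0.14, against 0.02 for chromosome 2. In Hoxb it was 6 of 15 with a median of 0.04, next to the 0.05 of chromosome 11. Shared regions within 10 Mb but outside the Hox windows had medians of -0.005 around Hoxa, 0.06 around Hoxb, 0.06 around Hoxc and -0.02 around Hoxd. Both SOX17FNV libraries lay below both SOX2 libraries in 8 Hoxa regions (57.1%) and 2 Hoxb regions (13.3%). It was 7 in Hoxc (36.8%) and 3 in Hoxd (23.1%), against 18.5% of all shared regions. All 3 regions with both above were in Hoxb (20% of its shared regions, against 24.1% of all shared regions). The difference between clusters was not tested, since regions of a cluster share the same libraries. The Hoxa median was -0.07 with background scaling, -0.18 with chromosome scaling and -0.13 with fold enrichment in place of pileup. Without the first SOX2 library the medians of Hoxa, Hoxb, Hoxc and Hoxd were -0.40, -0.05, -0.23 and -0.32, and without the second SOX2 library that of Hoxc was -0.20 and that of Hoxd -0.07. Without the second SOX17FNV library the Hoxb median was 0.11 and that of Hoxc -0.20.

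**Figure D4:**
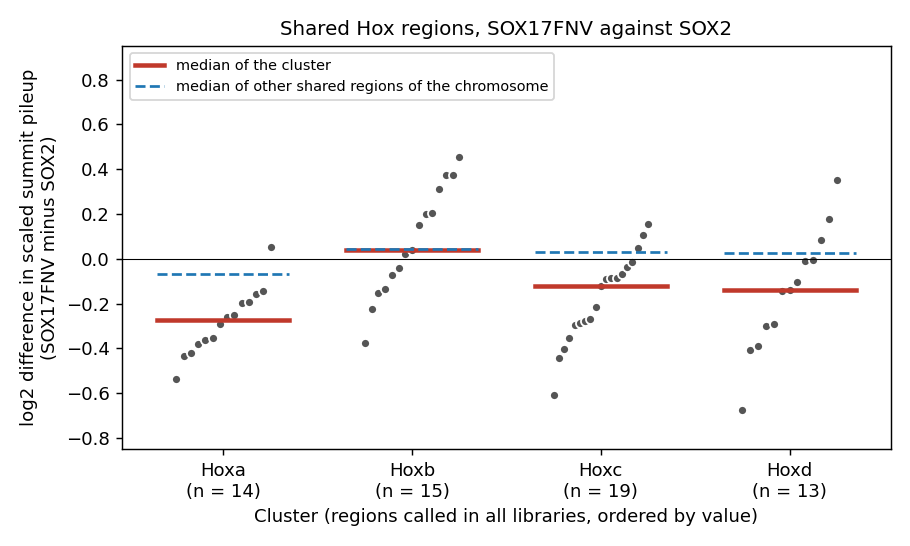
Difference in log2 scaled summit pileup (SOX17FNV minus SOX2) of each shared Hox region, by cluster, ordered by value within the cluster. Red lines are cluster medians (-0.27, 0.04, -0.12 and -0.14 from left to right), and dashed blue lines are the medians of the other shared regions of the same chromosome; no region passed limma's adjusted threshold.

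In Hoxa, the highest shared regions near described genes lay inside Hoxa3 and beside Hoxa9. The Hoxa3 region at chr6:52171925-52172917, in the gene for pharyngeal organs such as the thymus, had pileups of 34 and 35 in SOX17FNV and 40 and 45 in SOX2. Scaled, these came to 1.24 ± 0.303 in SOX17FNV and 1.37 ± 0.328 in SOX2 (SD, n = 2 each), and the groups overlapped (log2 difference -0.14, SE 0.21, limma adjusted p = 0.841). The region 644 bp from Hoxa9, a regulator of blood stem cells, at chr6:52221500-52222453 had 41 and 30 in SOX17FNV and 49 and 44 in SOX2. Its scaled values of 1.25 ± 0.005 in SOX17FNV and 1.49 ± 0.121 in SOX2 did not overlap, and the log2 difference was -0.25 (SE 0.19, limma adjusted p = 0.624). The cluster's largest difference was at another Hoxa3 region, chr6:52191864-52192602, with 14 and 17 in SOX17FNV and 27 and 23 in SOX2. Both SOX17FNV libraries were lower there (log2 difference -0.54, SE 0.28, limma adjusted p = 0.416), and the difference was -0.19 without the first SOX17FNV library and -0.91 without the second.

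In Hoxb, the levels of the highest regions were close in both groups. The region over the end of Hoxb9, a gene of the thoracic skeleton, at chr11:96270969-96272805 had pileups of 52 and 36 in SOX17FNV and 49 and 46 in SOX2. Its scaled level was 1.54 ± 0.054 in SOX17FNV and 1.52 ± 0.172 in SOX2 (log2 difference 0.02, SE 0.18, limma adjusted p = 0.982), with overlapping groups. The region 3730 bp from Hoxb13, a gene of the prostate, at chr11:96189999-96190586 had 35 and 40 in SOX17FNV and 40 and 41 in SOX2, again overlapping once scaled (log2 difference 0.04, SE 0.21, limma adjusted p = 0.966). The largest difference was 237 bp from Hoxb2, a gene of hindbrain segments, at chr11:96354257-96354940, where pileups were 30 and 23 in SOX17FNV and 24 and 19 in SOX2. Both SOX17FNV libraries were higher there after scaling (0.934 ± 0.035 in SOX17FNV, 0.682 ± 0.005 in SOX2), with a log2 difference of 0.45 (SE 0.25, limma adjusted p = 0.457).

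The highest Hox peaks near described genes stood in Hoxc, around Hoxc13, a gene of hair and nails. The region over its end at chr15:102920284-102921250 had pileups of 59 and 52 in SOX17FNV and 62 and 53 in SOX2. The region 2469 bp away at chr15:102931283-102932406 had 65 and 54 in SOX17FNV and 69 and 59 in SOX2, the top pileup of the Hox peaks of each of the 4 libraries. Scaled levels were 1.98 ± 0.268 in SOX17FNV and 1.83 ± 0.086 in SOX2 for the first and 2.11 ± 0.198 and 2.04 ± 0.096 for the second. Their log2 differences of 0.10 (SE 0.17, limma adjusted p = 0.865) and 0.05 (SE 0.17, limma adjusted p = 0.947) came with overlapping groups. The largest Hoxc difference was inside Hoxc9, a gene of thoracic motor neurons, at chr15:102981523-102982257, with 27 and 13 in SOX17FNV and 42 and 24 in SOX2. Both scaled SOX17FNV values were lower (0.680 ± 0.196 in SOX17FNV, 1.03 ± 0.242 in SOX2), with a log2 difference of -0.61 (SE 0.27, unadjusted p = 0.0275 and adjusted p = 0.278 in limma). It was -0.93 and -0.32 without the first and second SOX17FNV libraries, -0.42 and -0.90 without the first and second SOX2 libraries, and -0.31 with fold enrichment.

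In Hoxd, the region with the printed Hoxd10 promoter was among the highest. Hoxd10, a gene of lumbar motor neurons, had pileups of 41 and 23 in SOX17FNV and 38 and 24 in SOX2 at chr2:74691166-74692131, with overlapping groups (log2 difference 0.18, SE 0.23, limma adjusted p = 0.813). The Hoxd3 region at chr2:74715817-74716262, in a gene that shapes the first neck vertebrae, had 31 and 24 in SOX17FNV and 36 and 26 in SOX2 and overlapped fully (log2 difference -0.01, SE 0.23, limma adjusted p = 0.991). The region over the start of Hoxd1, a gene of pain-sensing neurons in mice, at chr2:74762723-74764167 had 20 and 14 in SOX17FNV and 26 and 34 in SOX2. Its scaled level was 0.595 ± 0.016 in SOX17FNV and 0.979 ± 0.333 in SOX2, both SOX17FNV libraries being lower. This was the lowest p of the Hox regions, at 0.0176 unadjusted and 0.226 adjusted in limma (log2 difference -0.68, SE 0.27). The difference was -1.12 without the first SOX2 library and -0.41 without the second, and the region was not shared at a -log10 q of at least 5.

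**Figure D5:**
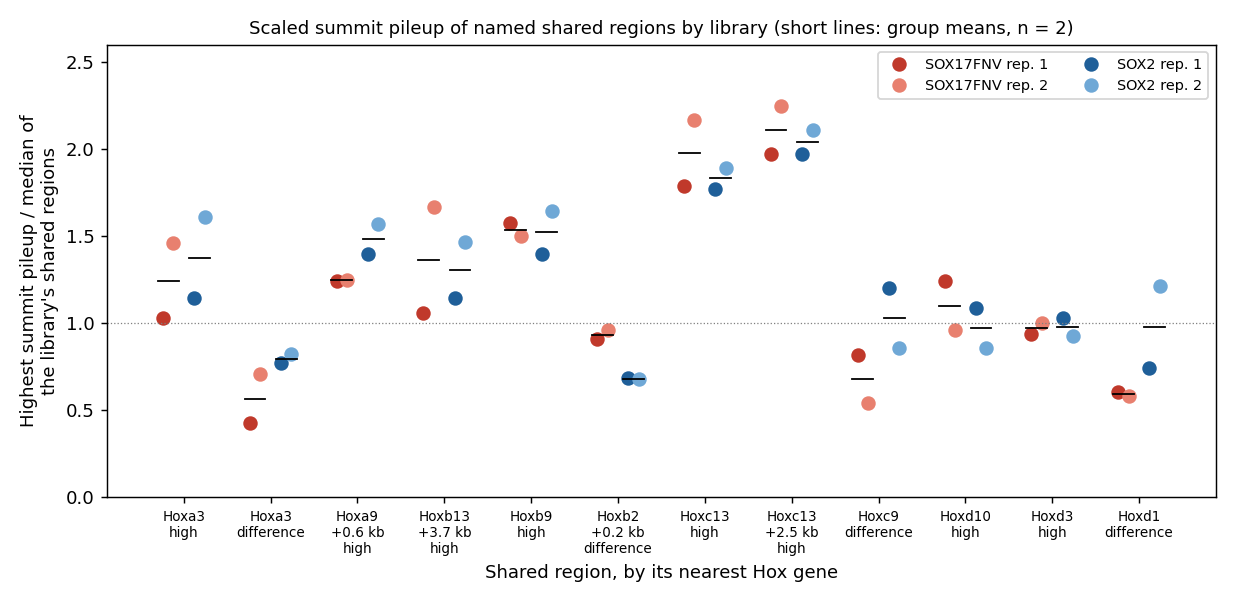
Scaled summit pileup (the highest summit of the region over the library's median shared region) of the named shared regions, for each library (SOX17FNV in red, SOX2 in blue), with short lines for group means, n = 2. The Hoxc13 regions are the highest at about 2, and both SOX17FNV points lie below both SOX2 points at the Hoxa9, Hoxc9 and Hoxd1 regions and at the second Hoxa3 region, and above them at Hoxb2.

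The microRNA genes printed above differed in how near they lay to open chromatin. The Mir196b hairpin at chr6:52230081-52230165 lay within the shared region chr6:52229617-52230186, 1011 bp from Hoxa10. That region had pileups of 37 and 19 in SOX17FNV and 37 and 31 in SOX2 (log2 difference -0.20, SE 0.23, limma adjusted p = 0.784), with overlapping groups. Mir10b lay 844 bp from a shared region inside Hoxd4. Mir196a-1 lay 3336 bp from a shared region on its side away from Hoxb9. The regions nearest to Mir10a, 828 bp away, and Mir196a-2, 2259 bp away, were each called in 1 library only, and the nearest shared regions lay 1124 and 2996 bp from them. The Mir615 hairpin at chr15:103014910-103015001 lay within the shared region over the end of Hoxc5, with pileups of 33 and 22 in SOX17FNV and 43 and 31 in SOX2. Over 10 noncoding genes of the clusters, 26 of 52 regions were shared (50%, against 33.8%) and 0 passed the limma threshold. In limma 0 of the 26 were higher and 2 lower at an unadjusted p under 0.05, against 7.46% and 6.07% of all shared regions. These genes lie within or beside the clusters, so many of these regions are Hox regions already counted and not a separate set. The 2 lower ones are the Hoxd1 and Hoxc9 regions described above.

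Genes that work with or upstream of Hox were counted from lists. For 9 cofactor genes of the PBX, MEIS and PKNOX families, 60 of 149 regions were shared (40.3%, against 33.8% of all regions). Of the cofactor regions, 9 were SOX17FNV-only (6.04%, against 3.06%) and 9 SOX2-only (6.04%, against 4.09%). A single shared region (1.67%) passed the limma threshold on the lower side, near the 1.23% of all shared regions. It lay inside Pknox2, with pileups of 44 and 22 in SOX17FNV and 77 and 49 in SOX2. It fell in SOX17FNV (log2 difference -0.83, SE 0.20, limma adjusted p = 0.0154). For 8 upstream genes of the CDX and retinoic acid pathways, 41 of 96 regions were shared (42.7%, against 33.8%), 7 were SOX17FNV-only (7.29%, against 3.06%) and 1 SOX2-only (1.04%, against 4.09%). Of the shared regions 2 passed the threshold, both lower (4.88%, against 1.23%). Cdx2, which drives posterior Hox genes and trophectoderm, had 26 and 25 in SOX17FNV and 54 and 56 in SOX2 at chr5:147304213-147305385. Its region fell by 0.96 on the log2 scale (SE 0.21, limma adjusted p = 0.00702) with no overlap. Aldh1a2, the enzyme that makes retinoic acid, had 23 and 16 in SOX17FNV and 49 and 39 in SOX2 at chr9:71227109-71228137, and fell by 1.03 (SE 0.23, limma adjusted p = 0.00824). Rarb, a retinoic acid receptor and itself a target of retinoic acid, held 4 of the SOX17FNV-only regions and the SOX2-only one. These calls rest on the scaling, since 0 regions genome-wide passed when libraries were divided by background pileup.

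No region of the homeobox genes linked or related to the clusters passed either. Over Evx1, Evx2, Gsx1, Gsx2, Pdx1 and Mnx1, 13 of 24 regions were shared (54.2%, against 33.8%) and 0 of them passed the limma threshold. At an unadjusted p under 0.05, 0 of the 13 were higher and 2 lower, against 7.46% and 6.07% of all shared regions. These genes had 2 SOX2-only regions (8.33%, against 4.09%), at Evx1 and Evx2, which flank the Hoxa and Hoxd clusters, and 0 SOX17FNV-only regions. The 2 shared regions at Evx2 were also counted among the Hox regions. For the Trithorax and Polycomb genes Kmt2a, Kmt2b, Ezh2, Eed and Suz12, whose products keep Hox genes on or off, 16 of 66 regions were shared (24.2%, against 33.8%), 1 was SOX17FNV-only (1.52%, against 3.06%) and 6 were SOX2-only (9.09%, against 4.09%). None of the 16 passed. At an unadjusted p under 0.05 in limma, 1 was higher and 1 lower, against 7.46% and 6.07% of all shared regions. All 5 genes had an open end in every library.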

How the data were processed

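Peaks were deposited as a separate list for each library, with names of that library alone, so they were not called on pooled reads. Bowtie2, SAMtools and MACS2 on mm10 are named in the submitters' processing notes, with versions, settings and any transposase shift not given in the sources used here. For every peak the authors gave a fold enrichment (the ratio of summit pileup to local background), the -log10 of the p-value and q-value of the summit, a score and the offset of the summit. The lowest deposited -log10 q was 1.30 in every list. Folds are the authors' values and served to describe peaks, to solve the pileups as given below, and in place of pileup in an alternative fit.

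The pileup was solved from the deposited fold and -log10 p, and a whole number returned that p within 0.001 for 100% of summits. Depth in reads is unknown; lowest summit pileups were 11 and 10 in SOX17FNV and 12 and 13 in SOX2. Peaks overlapping by at least 1 bp were merged. For regions called in all libraries, log2 of the highest pileup over the library's median was tested with limma 3.58.1 (R 4.3.3, intensity trend), with Benjamini-Hochberg adjustment over all shared regions and a threshold of 0.05. Shared regions had a peak in every library, so no pseudocount was added. The fit was tested on simulated data with 200 changed regions. It recovered 124 of them (62%) at a 2-fold change, with 10 false calls, and 200 at a 4-fold change, with 11 false calls. Gene spans, promoters and microRNAs came from RefSeq on GRCm38.p6, the assembly behind mm10. No strand or exons were given for genes without a promoter entry.

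Named regions were every group-specific Hox region, the 2 highest shared regions and the largest difference of each cluster, and genes with no region. The members, lists and rules were chosen with earlier results of these data known. Values of 1 gene and its 3 regions are not reported here, although they stay in the counts. Alternatives covered peak thresholds, distance, scaling, variance model, each library left out and a replicate block.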

Additional observations from a re-analysis of the deposited data

How the results depend on the processing

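The count of shared Hox regions (61) was 62 to 66 with a library left out, 19 at a -log10 q of at least 5 and 7 at 10. Over the genome, the 57783 shared regions became 28699 and 13927 at these thresholds. At 10 the share called in all 4 libraries was 20% of 35 Hox regions, under the 31.7% of all regions. The SOX17FNV-only count (1) was 0 for overlap with gene spans only, 3 within 50 kb and 3 to 8 with a library left out. The SOX2-only count (3) was 0 at a -log10 q of at least 5, 1 at 10, 1 for overlap only, 5 within 50 kb and 4 to 14 with a library left out, since 1 library then stands for its group. Without the first and second SOX17FNV libraries the counts were 7 and 8 SOX17FNV-only and 9 and 4 SOX2-only, and without the first and second SOX2 libraries 4 and 3 SOX17FNV-only and 14 and 13 SOX2-only. Each of these shares with a library left out lay under that of all regions but 1, the SOX2-only share without the first SOX2 library (12.3% against 12.2%). At a -log10 q of at least 10 the SOX2-only share was also above it (2.86% against 2.78%). No Hox region passed limma's adjusted threshold under any alternative run. Genome-wide, the 1226 calls became 529 and 225 at the stricter thresholds, 114 to 1618 with a library left out (114 without the first SOX2 library, 720 without the second), 0 when scaled by background pileup and 399 without an intensity trend (114 higher, 285 lower). Chosen after seeing the data, quantile normalization gave 462 (134 higher, 328 lower) and fold enrichment in place of pileup gave 208 (38 higher, 170 lower). Chromosome scaling gave 274 higher and 670 lower, against 516 higher and 710 lower as reported. The cause was not tested.

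The Hox median (-0.14) was -0.083 and -0.022 at the stricter thresholds, -0.25 to -0.13 with a library left out, -0.075 with fold enrichment and 0.060 when scaled by background pileup, where all shared regions had 0.24. With that scaling the Hoxc and Hoxd medians were 0.080 and 0.065. The Hoxd median was -0.0056 at a -log10 q of at least 5, the Hoxa median -0.11 and the Hoxc median -0.015 at 10, and the Hoxc median -0.030 with fold enrichment. The Hoxb median (0.04) was -0.012 and -0.062 at the stricter thresholds, -0.0088 with quantile normalization and -0.048 to 0.106 with a library left out, so its direction was not fixed. The 16 named regions gave 199 values under other settings, of which 162 kept their direction and call, and 9 calls of group-specific regions were lost at stricter thresholds or equal list lengths. The difference beside Hoxa9 (-0.25) was -0.15 with chromosome scaling, -0.049 with background scaling, -0.082 with fold enrichment and -0.387 without the first SOX2 library. The 28 reversals were at regions whose difference was within 0.18 of 0. With a library left out, the log2 difference ran from -0.046 to 0.359 at Hoxd10, -0.139 to 0.012 at Hoxd3, -0.443 to 0.085 at Hoxa3 (52171925), -0.292 to 0.345 at Hoxb13, -0.148 to 0.082 at Hoxb9, and -0.040 to 0.222 (102920284) and -0.055 to 0.122 (102931283) at Hoxc13. At a -log10 q of at least 5, Hoxb13 was -0.0025 and Hoxb9 -0.022, and at 10 Hoxb13 was -0.022 and Hoxc13 (102931283) -0.015. Chromosome scaling gave Hoxd3 0.010 and Hoxb9 -0.015, background scaling Hoxd3 0.191 and Hoxa3 0.058, and lists of equal length Hoxb9 -0.015. Quantile normalization gave Hoxb13 -0.0088, Hoxb9 -0.028 and Hoxc13 -0.047, and fold enrichment Hoxd3 0.116, Hoxb13 -0.0074 and Hoxb9 -0.027.

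The groups share replicate numbers, but the labels do not say that a number marks a shared batch. With 2 pairs, replicate deviations correlated with r = 0.233 over 57783 regions, which are not independent, and the replicate block called 0 Hox regions and 3674 regions genome-wide (1886 higher, 1788 lower). Depth limits the lists: the weakest peaks had pileups of 10 to 13, and absence from a list does not show closed chromatin.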
